A study of Mus musculus with 17 samples.

Results

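The chemokine ligand genes were taken as every gene on the array whose name is Ccl or Cxcl followed by a number, together with Cx3cl1 and Xcl1. The rule itself used names alone, but it was chosen with earlier results of these data known. The rule found 37 of 31588 gene names, carried by 45 of 39429 probes. Of the 37 genes, 29 were well above background on at least 2 of the 17 arrays and were tested among 25975 genes. Ccl3, Ccl4 and Ccl11 were well above background on 1 array, and Ccl1, Ccl20, Ccl22, Ccl26 and Xcl1 on none. No difference in these 8 genes was detectable at the sensitivity of the arrays.

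Chemokines are small secreted proteins that bind receptors on white blood cells and draw the cells along a gradient. Ccl2 and Ccl7 attract monocytes mainly through Ccr2, Cxcl1, Cxcl2, Cxcl3 and Cxcl5 attract neutrophils through Cxcr2, and the interferon-inducible Cxcl9, Cxcl10 and Cxcl11 attract T cells and natural killer cells through Cxcr3. In liver, hepatocytes, bile duct cells, Kupffer cells, endothelial cells and stellate cells can all make chemokines. Many chemokine genes are known targets of NF-kappaB, a factor that inflammatory stimuli switch on, and Cxcl9 and Cxcl10 are known targets of interferon-activated factors.

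The sequences just before the start of 5 chemokine genes are shown because these genes differed among the cultured cells and their sequences held a motif searched for here. Cxcl1, Cxcl2 and Cxcl3, which lie near each other on chromosome 5, were lower in cells differentiated to hepatocytes than in cells differentiated to cholangiocytes, though for Cxcl1 several alternatives lost the call. Cxcl9 and Cxcl10 were higher in the cells differentiated to hepatocytes than in undifferentiated cells. The sequences are from RefSeq on build GRCm38.p6, written 5′ to 3′ on the strand of the gene, with 120 bases for the first 3 genes and 220 for the others. They lie at chr5:90891125-90891244 (plus strand), chr5:90903779-90903898 (plus strand), chr5:90785981-90786100 (plus strand), chr5:92328080-92328299 (minus strand) and chr5:92348890-92349109 (minus strand). Capitals mark matches, on either strand, to GGNNTTTCC (an NF-kappaB type motif), GAAANNGAA (a type bound by interferon-activated factors) or TGANTCA (an AP-1 type motif). No match shown overlaps another.
Cxcl1: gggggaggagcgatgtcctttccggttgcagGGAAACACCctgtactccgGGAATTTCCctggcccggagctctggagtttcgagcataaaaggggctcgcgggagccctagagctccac
Cxcl2: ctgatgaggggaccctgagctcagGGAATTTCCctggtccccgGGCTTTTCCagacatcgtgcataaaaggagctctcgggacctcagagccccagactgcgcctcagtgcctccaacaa
Cxcl3: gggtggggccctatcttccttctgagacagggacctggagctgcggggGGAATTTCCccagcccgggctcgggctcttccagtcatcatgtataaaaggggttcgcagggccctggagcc
Cxcl9: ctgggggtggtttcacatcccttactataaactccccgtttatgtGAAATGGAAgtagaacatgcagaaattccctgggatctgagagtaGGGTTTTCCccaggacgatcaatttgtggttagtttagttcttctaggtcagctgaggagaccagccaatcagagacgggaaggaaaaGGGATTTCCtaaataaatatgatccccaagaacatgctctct
Cxcl10: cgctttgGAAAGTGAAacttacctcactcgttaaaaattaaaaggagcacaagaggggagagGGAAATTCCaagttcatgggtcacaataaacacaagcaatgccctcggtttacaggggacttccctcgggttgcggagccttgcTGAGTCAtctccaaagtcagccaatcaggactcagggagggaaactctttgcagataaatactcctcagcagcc

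The NF-kappaB type motif began 89 and 70 bases before the start of Cxcl1, 96 and 77 bases before that of Cxcl2, and 72 bases before that of Cxcl3. It began 130 and 42 bases before the start of Cxcl9 and 158 bases before that of Cxcl10. The interferon type began 175 bases before the start of Cxcl9 and 213 bases before that of Cxcl10, and the AP-1 type 74 bases before that of Cxcl10. Within 250 bases before the start, the NF-kappaB type was present in 4.93% of 32851 promoter windows, the interferon type in 7.13% and the AP-1 type in 6.75%. Of the 37 chemokine genes, 26 had a window. The NF-kappaB type was also found for Ccl9 and Ccl20, the interferon type for Ccl1, Ccl3, Ccl19 and Cxcl14, and the AP-1 type for Ccl9 and Ccl27a. These are matches of letters, not measured binding. Ccl2, Ccl4, Ccl5, Ccl7, Ccl11, Ccl24, Ccl26, Cxcl5, Cxcl11, Cxcl16 and Cxcl17 had no entry.

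RNA of mouse liver cells was measured on 17 one-colour Agilent arrays in 5 groups: undifferentiated adult hepatic progenitor cells (n = 4), cells differentiated in vitro to hepatocytes (the hepatocyte condition, n = 4) or to cholangiocytes, the lining cells of bile ducts (the cholangiocyte condition, n = 3), primary hepatocytes (n = 4) and primary cholangiocytes (n = 2). All groups were from Foxl1-CRE; RosaYFP mice, offspring of a cross with Rosa26R reporter mice, aged 6 to 10 weeks, so the primary cells carry both alleles too. In this model Foxl1 regulatory sequence drives Cre, and Cre turns on a yellow fluorescent reporter in cells that use it and in their descendants. The stated design set in vitro differentiated cells against primary cells. The labels do not say whether replicates were separate animals, sorts or cultures, so the p-values reflect the spread between these samples alone, which may be technical. The sources used here give neither the medium nor the time in culture, and precision is limited by the number of arrays.

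Levels are given on the log2 scale as the intensity of a gene over the 75th percentile of its array, so 0 equals that percentile, and they are compared within a gene only. Each array held 23894 to 29225 probes well above background. The 75th percentile was 801 ± 189 (SD, n = 4) intensity units in primary hepatocytes, against group means of 1857 to 2767 elsewhere. The dimmest probe well above background stood at -6.51 to -5.62 on the arrays of primary hepatocytes and at -7.76 to -7.00 on the others. The summed level of 6 hepatocyte markers was 11.05 to 11.59 in primary hepatocytes, 4.88 to 8.56 in the hepatocyte condition and 4.83 to 7.24 in undifferentiated cells. Between the last pair, 0 of the 6 passed (all genes: 7.62% higher and 7.70% lower). Their median log2 difference was 3.30, against 0.07 over all genes, with standard errors of 0.45 to 3.24. In the same limma comparison, 7180 of all 25975 genes had an unadjusted p under 0.05. The summed level of 6 cholangiocyte markers was 7.26 to 7.72 in primary cholangiocytes and 6.32 to 7.43 in the cultures, and Krt7 and Epcam were not above background in primary hepatocytes. Of these 6, 0 passed between the cholangiocyte condition and undifferentiated cells (all genes: 0.785% higher and 0.597% lower). Against primary cholangiocytes, Sox9 and Spp1 were higher and Krt7 and Epcam lower in the cholangiocyte condition (all genes: 11.9% and 7.64%).

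Differences are log2, first group minus second, with the standard error of a limma fit to all 17 arrays. Passing means a Benjamini-Hochberg adjusted p below 0.05 with all 25975 genes in the adjustment, and 26 of the 29 chemokine genes passed in at least 1 of the 8 comparisons between groups. The matching share of all genes was not computed. Between primary hepatocytes and undifferentiated cells alone, 37.6% of all genes were higher and 26.6% lower, so passing somewhere is common here. In cultured cells, Ccl7 was 110.1-fold lower, Cxcl3 37.1-fold lower and Ccl2 21.3-fold lower in the hepatocyte than in the cholangiocyte condition. Cxcl10 rose over undifferentiated cells by 17.2-fold in the hepatocyte and by 7.95-fold in the cholangiocyte condition. Primary hepatocytes had the highest Cxcl12 and Ccl9 of the 5 groups, and Ccl7, Ccl8, Cx3cl1, Cxcl3 and Cxcl17 were not above background on any of their arrays. In these bulk samples, fewer cells of a type and less RNA per cell cannot be told apart.

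Between the hepatocyte condition and undifferentiated cells, 3 of 29 chemokine genes rose (Ccl8, Cxcl9 and Cxcl10) against 7.62% of all genes, and 7 fell (Ccl2, Ccl6, Ccl7, Ccl17, Cxcl3, Cxcl5 and Cxcl16) against 7.70%. The median difference of the 29 was -0.44, and that of all genes 0.07. In the cholangiocyte condition, 2 rose (Ccl7 and Cxcl10) against 0.785% of all genes, and Ccl17, 1 gene, fell against 0.597%, with medians of 0.33 and 0.14. Under normexp, another background correction, the numbers higher and lower there were 3 and 0 (all genes: 188 and 103). Between the conditions, 3 were higher in the hepatocyte condition (Cxcl9, Cxcl12 and Cxcl17) against 6.97% of all genes. The other 9 that passed were lower (Ccl2, Ccl5, Ccl6, Ccl7, Cxcl1, Cxcl2, Cxcl3, Cxcl5 and Cxcl16) against 8.42%. The numbers higher and lower under normexp were 4 and 7 (all genes: 1422 and 2023). The medians were -0.25 for the 29 and -0.13 for all genes. The 3 comparisons share arrays, so their counts are not independent.

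Against primary hepatocytes, the hepatocyte condition was higher in 9 chemokine genes (26.0% of all genes) and lower in 10 (33.7%). These numbers were 11 and 8 under quantile normalization (all genes: 7976 and 7377) and 7 and 16 under normexp (all genes: 5475 and 14228). The cholangiocyte condition was higher than primary cholangiocytes in 10 (11.9%) and lower in 2, Ccl17 and Ccl28 (7.64%). Primary hepatocytes were higher than primary cholangiocytes in 12 (28.0%) and lower in 8 (21.6%). These numbers were 8 and 11 under quantile normalization (all genes: 6215 and 7138) and 17 and 5 under normexp (14339 and 4810). Primary hepatocytes were higher than undifferentiated cells in 12 (37.6%) and lower in 10 (26.6%). The numbers were 9 and 11 under median scaling (all genes: 7017 and 8569) and 8 and 11 under quantile normalization (7442 and 8391). Under normexp they were 15 and 7 (14785 and 5848). Primary cholangiocytes were higher than undifferentiated cells in Ccl28 and Cxcl16, 2 genes (8.50%), and lower in 9 (10.6%). The median of the 29 against that of all genes was -0.06 against -0.33, 0.91 against 0.17, 0.57 against 0.35, 0.58 against 0.44 and -0.75 against 0.01 in these 5 comparisons, in the order given. The counts that involve primary hepatocytes include readings near background. Between the primary types, Ccl8 was above background on no array of either group, and Cxcl13 and Cxcl15 on 1 of 6. In these comparisons Cxcl13 and Cxcl15, and against undifferentiated cells also Ccl28, were above background on at most 1 array of each group. Members above background on every array of 1 of the groups were also counted alone, a choice made after seeing the data. Of these, 16 passed between the hepatocyte condition and primary hepatocytes, 16 between the primary types and 18 between primary hepatocytes and undifferentiated cells. This filter favours members bright in a compared group. The share of all genes passing under it is not given here, so these counts cannot be set against one. Leaving out primary cholangiocyte replicate 3 left 1 array in its group. Against the cholangiocyte condition, the calls of Ccl17, Ccl25 and Ccl28 were then lost. Between the primary types, those of Ccl17, Ccl24, Ccl28, Cxcl10 and Cxcl13 were lost, and against undifferentiated cells those of Ccl9, Ccl25 and Cxcl16. The scalings shifted the median of all genes by -0.45 (primary hepatocytes minus undifferentiated cells, quantile) to 0.52 (primary hepatocytes minus primary cholangiocytes, normexp).

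A gene that was dim on every array of a group has only a bound there, written as at least N-fold. It is the bright group's mean over, for each dim array, the lowest signal among probes well above background or the gene's own signal if higher. With such genes at their bounds, and at 0 where no bound could be set, the medians of the 29 ran from -0.41 (primary cholangiocytes minus undifferentiated cells) to 0.78 (cholangiocyte condition minus primary cholangiocytes).

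**Figure D1:**
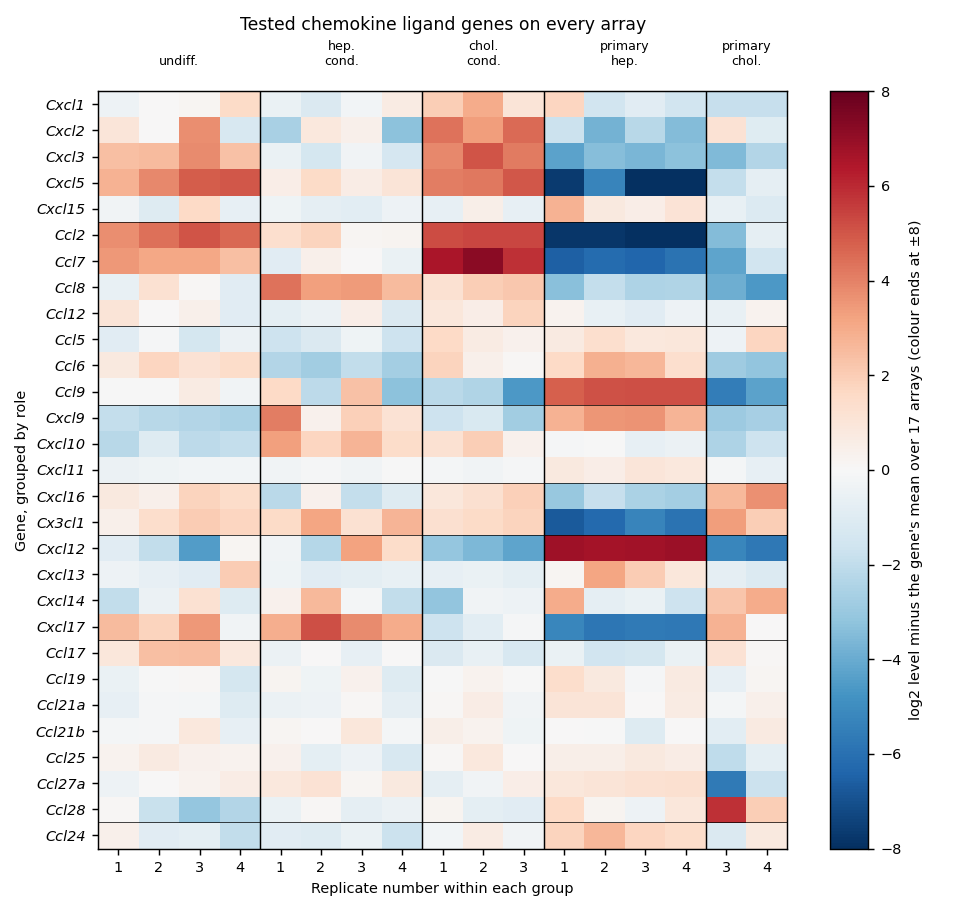
Log2 level of each of the 29 tested chemokine genes (vertical axis, by role) on each of the 17 arrays (horizontal axis, by group and replicate number), minus the gene's mean over the arrays. Red is above and blue below that mean, with the colour ending at 8 in either direction; Ccl2, Ccl7 and Cxcl5 are blue in primary hepatocytes, where Cxcl12 and Ccl9 are red.

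Among the attractants of monocytes, Ccl7 separated the 3 cultured groups. It read 1.74, 1.36, 1.32 and 0.68 on the 4 arrays of undifferentiated cells, -2.66, -1.38, -1.73 and -2.26 in the hepatocyte condition and 4.81, 5.45 and 4.07 in the cholangiocyte condition. The hepatocyte condition was lowest, the cholangiocyte condition highest, and no arrays overlapped. Ccl7 fell by 3.28 ± 0.49 in the hepatocyte condition (adjusted p = 6.56e-04) and rose by 3.50 ± 0.53 in the cholangiocyte condition (adjusted p = 0.00495). The conditions differed by -6.78 ± 0.53 (adjusted p = 4.55e-06), and by -5.45, -7.17 and -7.47 within the 3 slides that held both. In primary cholangiocytes it read -5.98 and -3.26, below every cultured array, and the cholangiocyte condition was higher by 9.39 ± 0.63 (adjusted p = 5.19e-07). Ccl7 was at least 162-fold lower in primary hepatocytes than in undifferentiated cells and at least 16.7-fold lower than in the hepatocyte condition (adjusted p = 1.34e-09 and 1.55e-07; log2 differences of -4.51 and 1.48 under normexp). The probe lies at chr11:81860656-81860715 on build mm9, plus strand.

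Ccl2, a major attractant of Ccr2-bearing monocytes, read 6.25, 6.91, 7.56 and 7.11 in undifferentiated cells, 3.87, 4.28, 2.66 and 2.73 in the hepatocyte condition and 7.71, 7.84 and 7.84 in the cholangiocyte condition. It read -0.96 and 1.76 in primary cholangiocytes and -5.29, -5.27, -5.92 and -6.43 in primary hepatocytes, where replicate 4 was not above background. The hepatocyte condition lay below both other cultures and above both primary groups on every array. Ccl2 fell by 3.57 ± 0.53 from undifferentiated cells (adjusted p = 6.07e-04), and the conditions differed by -4.41 ± 0.57 (adjusted p = 2.20e-04). The cholangiocyte condition differed from undifferentiated cells by 0.84 ± 0.57, which did not pass (adjusted p = 0.571). Primary hepatocytes differed from undifferentiated cells by -12.69 ± 0.53 and from primary cholangiocytes by -6.13 ± 0.65 (adjusted p = 1.12e-10 and 2.59e-06). The probe lies at chr11:81850650-81850709 on build mm9, plus strand.

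Ccl8, a ligand of Ccr8 in the mouse, had another order. It read -5.78, -3.95, -5.07 and -6.07 in undifferentiated cells, -0.80, -1.90, -1.79 and -2.66 in the hepatocyte condition and -3.93, -3.18 and -3.03 in the cholangiocyte condition. Each array of the hepatocyte condition was above each other cultured array. Ccl8 rose by 3.43 ± 0.48 (adjusted p = 4.21e-04), while the difference between the conditions of 1.59 ± 0.52 did not pass (adjusted p = 0.0537). It was not above background in either primary group. It was at least 19.4-fold higher in the hepatocyte condition than in primary hepatocytes (adjusted p = 1.39e-07; log2 difference of 1.64 under normexp) and at least 17.5-fold higher in the cholangiocyte condition than in primary cholangiocytes (adjusted p = 1.88e-05). Ccl12, another Ccr2 ligand of the mouse, passed in none of the 8 comparisons and was above background on all arrays of the cholangiocyte condition alone, at -6.59, -6.95 and -5.69.

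**Figure D2:**
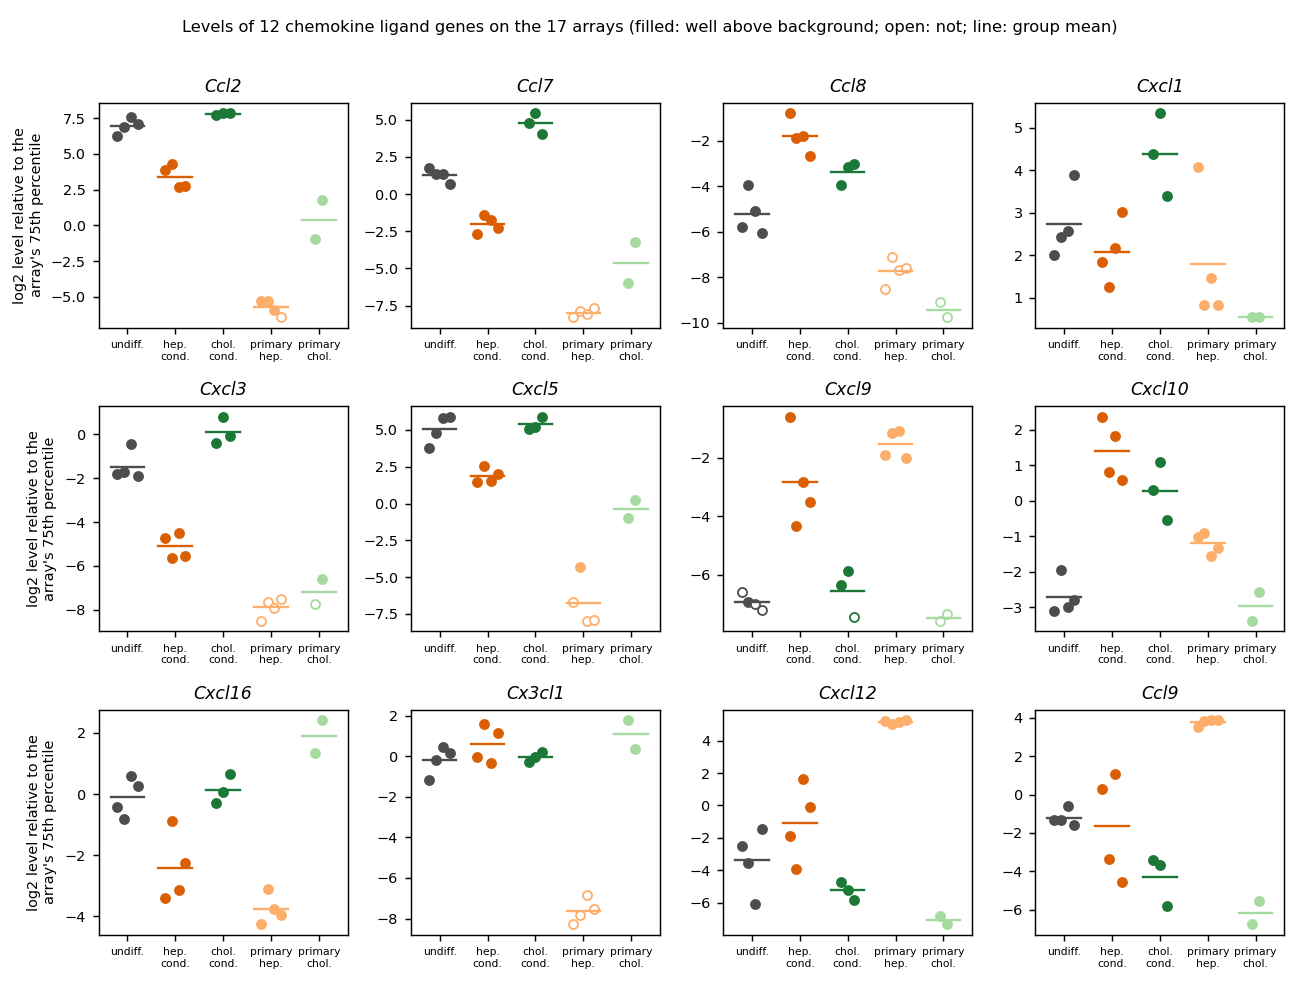
Log2 level over the array's 75th percentile (vertical axis) of 12 chemokine genes in the 5 groups (horizontal axis); each point is 1 array, open where not well above background, and the line is the group mean. Ccl7 separates the 3 cultured groups, Cxcl12 stands at 5.05 to 5.27 in primary hepatocytes, and all points of Cx3cl1 there are open.

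Of 5 tested attractants of neutrophils, 4 were lower in the hepatocyte than in the cholangiocyte condition (8.42% of all genes). These were Cxcl1, Cxcl2, Cxcl3 and Cxcl5, all ligands of Cxcr2. None of the 5 passed between the cholangiocyte condition and undifferentiated cells (all genes: 0.785% higher and 0.597% lower), which at such shares says little. Cxcl3 read -1.81, -1.71, -0.45 and -1.91 in undifferentiated cells, -4.74, -5.64, -4.49 and -5.55 in the hepatocyte condition and -0.41, 0.81 and -0.06 in the cholangiocyte condition. The hepatocyte condition lay below all other cultured arrays. Cxcl3 fell by 3.63 ± 0.41 from undifferentiated cells (adjusted p = 8.30e-05), and the conditions differed by -5.22 ± 0.45 (adjusted p = 9.04e-06). It was above background on none of the arrays of primary hepatocytes and on 1 of 2 arrays of primary cholangiocytes. It was at least 24.2-fold lower in primary hepatocytes than in undifferentiated cells (adjusted p = 9.58e-09). Against the hepatocyte condition the bound was 1.95-fold lower (adjusted p = 4.81e-05), and under normexp that log2 difference turned to -0.32 (adjusted p = 0.376).

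Cxcl5 read 3.76, 4.80, 5.80 and 5.91 in undifferentiated cells, 1.49, 2.51, 1.54 and 2.02 in the hepatocyte condition and 5.06, 5.21 and 5.91 in the cholangiocyte condition. The hepatocyte condition lay below both other cultures, which overlapped. Cxcl5 fell by 3.17 ± 0.71 from undifferentiated cells (adjusted p = 0.00782), and the conditions differed by -3.50 ± 0.77 (adjusted p = 0.00708). It read -0.96 and 0.26 in primary cholangiocytes and was above background on 1 of 4 arrays of primary hepatocytes. The cholangiocyte condition was 53.6-fold above primary cholangiocytes (adjusted p = 6.68e-04). Cxcl2 read 0.25, -0.70 and 0.44 in the cholangiocyte condition and -6.65, -3.25, -3.69 and -7.32 in the hepatocyte condition, where 2 arrays were not above background. These groups did not overlap, and the difference was -5.23 ± 1.16 (adjusted p = 0.00773). In undifferentiated cells Cxcl2 spread from -5.33 to -0.37, and neither condition passed against them.

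Cxcl1 read 2.0, 2.44, 2.57 and 3.89 in undifferentiated cells, 1.83, 1.26, 2.17 and 3.01 in the hepatocyte condition and 4.38, 5.34 and 3.40 in the cholangiocyte condition. The conditions did not overlap, and the difference of -2.31 ± 0.74 passed at an adjusted p of 0.0491. This call was lost under median scaling (adjusted p = 0.0503), without the filter on dim probes (0.0581) and with a replicate block (0.0736). It was also lost without hepatocyte condition replicate 1, 2 or 3 (adjusted p = 0.0828 to 0.122) or cholangiocyte condition replicate 1 or 2 (0.117 and 0.200). Primary cholangiocytes read 0.55 and 0.54, below every array of the cholangiocyte condition, which was higher by 3.83 ± 0.88 (adjusted p = 0.00767). In primary hepatocytes Cxcl1 read 4.08, 0.84, 1.46 and 0.84, replicate 1 being the highest. Cxcl15, best known from lung, was above background on 1 array each of undifferentiated cells and primary hepatocytes and on none of the other groups.

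**Figure D3:**
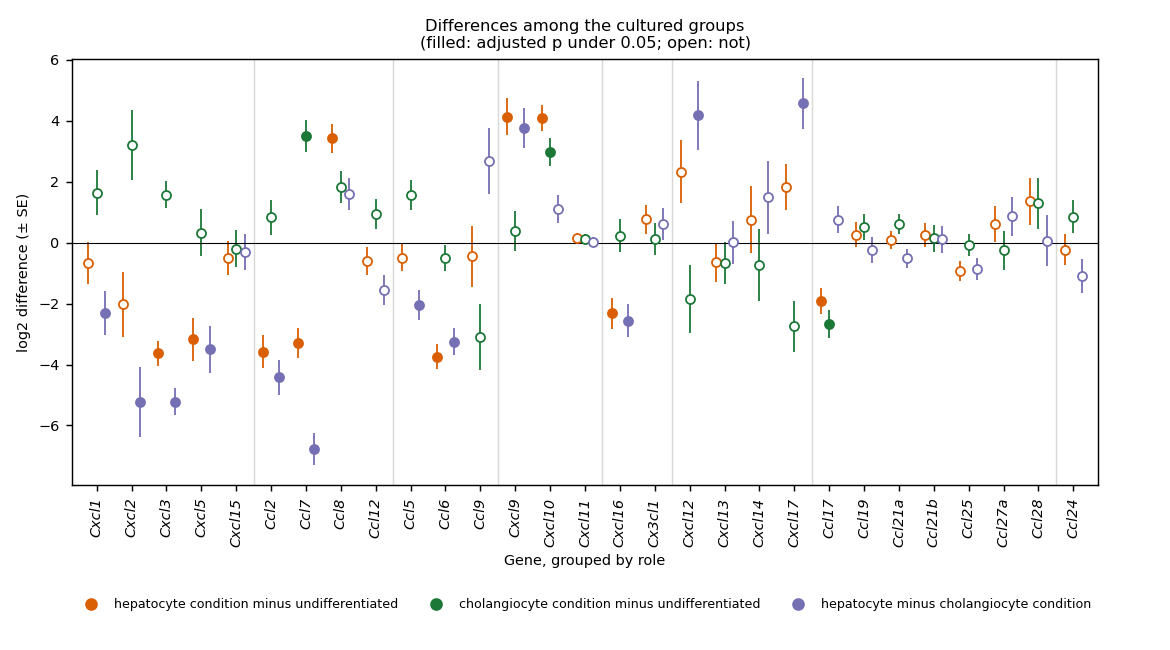
Log2 difference ± SE (vertical axis) of the 29 tested chemokine genes (horizontal axis, by role) in the 3 comparisons among cultured groups; filled points passed at an adjusted p under 0.05. Between the conditions, Cxcl1, Cxcl2, Cxcl3, Cxcl5, Ccl2 and Ccl7 are filled below 0, and Cxcl9, Cxcl12 and Cxcl17 above it.

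The interferon-inducible ligands of Cxcr3 included the chemokine that rose in both conditions. Cxcl10 read -3.09, -1.94, -2.98 and -2.79 in undifferentiated cells, 2.38, 0.82, 1.82 and 0.60 in the hepatocyte condition and 0.31, 1.09 and -0.52 in the cholangiocyte condition. Both conditions were above undifferentiated cells on every array, and they overlapped each other. Cxcl10 rose by 4.11 ± 0.43 in the hepatocyte condition (adjusted p = 4.57e-05) and by 2.99 ± 0.46 in the cholangiocyte condition (adjusted p = 0.00596, and 0.0603 when only the compared groups were fitted). Within the 2 slides that held both groups, the latter difference was 1.42 and 3.29. The difference between the conditions of 1.11 ± 0.46 did not pass (adjusted p = 0.131). Cxcl10 read -1.01, -0.89, -1.56 and -1.34 in primary hepatocytes and -3.38 and -2.55 in primary cholangiocytes, below every array of the matching condition. The hepatocyte condition was higher by 2.60 ± 0.43 (adjusted p = 1.29e-04) and the cholangiocyte condition by 3.26 ± 0.55 (adjusted p = 0.00107, and 0.0555 when only the compared groups were fitted). The probe lies at chr5:92775781-92775840 on build mm9, minus strand.

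Cxcl9 read -0.59, -4.33, -2.81 and -3.52 in the hepatocyte condition and -1.90, -1.13, -1.09 and -2.01 in primary hepatocytes, and these groups overlapped. It was above background on 1 of 4 arrays of undifferentiated cells, 2 of 3 of the cholangiocyte condition and none of primary cholangiocytes. It rose by 4.13 ± 0.61 in the hepatocyte condition (adjusted p = 5.74e-04), and a second probe gave 7.52 ± 0.69. The conditions differed by 3.76 ± 0.66 (adjusted p = 0.00173), and primary hepatocytes were at least 56.4-fold above primary cholangiocytes (adjusted p = 1.32e-05). Cxcl11 stood at 6.92 to 8.55 on all 17 arrays, but its probe shares a run of 16 bases with 19 probes of other names and with the promoters of 54 other genes. It was higher in primary hepatocytes than in undifferentiated cells by 1.1 ± 0.15 (adjusted p = 1.46e-05), where a second probe gave 0.30 ± 0.26 and quantile normalization 0.12 (adjusted p = 0.521). Against primary cholangiocytes it was higher by 1.17 ± 0.18, which turned to -0.07 under quantile normalization, and the second probe gave 0.13 ± 0.32. Between the hepatocyte condition and primary hepatocytes the probes gave -0.94 ± 0.15 and -0.03 ± 0.26. Whether this probe reads Cxcl11 was not tested.

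Both membrane-anchored chemokines were lower in primary hepatocytes than in primary cholangiocytes (21.6% of all genes). Cx3cl1, or fractalkine, the ligand of Cx3cr1, read 1.79 and 0.37 in primary cholangiocytes and was not above background in primary hepatocytes, at least 141-fold lower (adjusted p = 3.59e-08). It stood at -1.19 to 1.57 on all cultured arrays and passed in no comparison among them. The hepatocyte condition was at least 100-fold above primary hepatocytes (adjusted p = 5.07e-09).

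Cxcl16, the ligand of Cxcr6, read -0.42, -0.80, 0.58 and 0.27 in undifferentiated cells, -3.40, -0.88, -3.12 and -2.25 in the hepatocyte condition and -0.30, 0.07 and 0.65 in the cholangiocyte condition. It read -4.26, -3.09, -3.74 and -3.95 in primary hepatocytes and 1.34 and 2.42 in primary cholangiocytes. The hepatocyte condition lay below the other cultures and overlapped primary hepatocytes. Cxcl16 fell by 2.32 ± 0.50 from undifferentiated cells (adjusted p = 0.00678), and the conditions differed by -2.55 ± 0.55 (adjusted p = 0.00614). Primary hepatocytes differed from primary cholangiocytes by -5.64 ± 0.62 (adjusted p = 3.63e-06). Primary cholangiocytes were above undifferentiated cells by 1.98 ± 0.62 (adjusted p = 0.0382), a call lost in 8 alternatives (adjusted p = 0.0564 to 0.260). These were median scaling, the slide or the replicate number as a block, a fit to the compared groups alone, and fits without undifferentiated replicate 1 or 2 or primary cholangiocyte replicate 3 or 4. The excess of the hepatocyte condition over primary hepatocytes, 1.35 ± 0.50 (adjusted p = 0.0329), was lost under normexp (0.50) and when only the compared groups were fitted (adjusted p = 0.0652). It was also lost without hepatocyte condition replicate 2 (0.84) or 4, or primary hepatocyte replicate 1, 3 or 4 (adjusted p = 0.0547 to 0.109).

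Cxcl12, which attracts cells that bear Cxcr4, read 5.17, 5.05, 5.14 and 5.27 in primary hepatocytes. It read -2.49, -3.55, -6.05 and -1.42 in undifferentiated cells, -1.86, -3.89, 1.66 and -0.11 in the hepatocyte condition, -6.83 and -7.32 in primary cholangiocytes and -4.70, -5.19 and -5.81 in the cholangiocyte condition. No array of another group reached primary hepatocytes. They were higher than primary cholangiocytes by 12.23 ± 1.27 (adjusted p = 2.13e-06; second probe 10.65 ± 1.44). The hepatocyte condition differed from primary hepatocytes by -6.21 ± 1.04 (adjusted p = 1.43e-04; second probe -4.60 ± 1.18). It was above the cholangiocyte condition by 4.18 ± 1.12 (adjusted p = 0.0214; second probe 4.53 ± 1.27). That call was lost with a replicate block (adjusted p = 0.0505), when only the compared groups were fitted (0.0798), and without hepatocyte condition replicate 3 or 4 or cholangiocyte condition replicate 2 or 3 (0.0526, 0.0548, 0.0619 and 0.0732). The probe lies at chr6:117131227-117131286 on build mm9, plus strand.

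Stellate cells and fibroblasts are known sources of Cxcl12. Of 9 tested markers of these cells, 1, Dcn, was higher in the hepatocyte than in the cholangiocyte condition (6.97% of all genes), by 5.38 ± 0.95 (adjusted p = 0.00182). The summed level of the 11 markers was -1.70 to 1.66 in the hepatocyte condition, -3.44 to -2.36 in the cholangiocyte condition, -3.24 to -2.41 in undifferentiated cells, 0.27 to 1.70 in primary hepatocytes and -2.65 to 0.04 in primary cholangiocytes. Des and Hgf were not above background in any group, nor was Pdgfrb in primary hepatocytes. The part of such cells in the Cxcl12 levels was not tested.

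Cxcl17, made by mucosal epithelia, read 0.42, -0.36, 1.33 and -2.38 in undifferentiated cells, 0.82, 3.03, 1.64 and 0.83 in the hepatocyte condition and -3.80, -2.98 and -2.21 in the cholangiocyte condition. The conditions did not overlap and differed by 4.57 ± 0.83 (adjusted p = 0.00212). In primary cells the order was the opposite. Cxcl17 was not above background in primary hepatocytes and read 0.66 and -2.09 in primary cholangiocytes, at least 40.9-fold more (adjusted p = 2.45e-05). The hepatocyte condition was at least 200.2-fold above primary hepatocytes (adjusted p = 1.56e-07; log2 difference of 4.99 under normexp). Cxcl13, the attractant of B cells, was above background on 1 array each of undifferentiated cells and primary hepatocytes and on none of the others. Cxcl14 passed in no comparison and spread from -9.25 to -3.08 over the 17 arrays.

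Ccl9, a ligand of Ccr1, read 3.52, 3.85, 3.87 and 3.89 in primary hepatocytes and -1.32, -1.31, -0.59 and -1.57 in undifferentiated cells. It read 0.30, -3.38, 1.08 and -4.57 in the hepatocyte condition, -6.77 and -5.57 in primary cholangiocytes and -3.39, -3.70 and -5.84 in the cholangiocyte condition. Primary hepatocytes lay above all other arrays, and the 4 arrays of the hepatocyte condition fell into a higher and a lower pair. Primary hepatocytes were higher than primary cholangiocytes by 9.95 ± 1.23 and than undifferentiated cells by 4.98 ± 1.0 (adjusted p = 1.15e-05 and 6.02e-04). Ccl6, another Ccr1 ligand, stood at -5.64 to -4.72 in undifferentiated cells, -6.29 to -4.63 in the cholangiocyte condition and -5.06 to -3.54 in primary hepatocytes, and was not above background in the hepatocyte condition or in primary cholangiocytes. It was at least 4.50-fold lower in the hepatocyte condition than in undifferentiated cells (adjusted p = 5.31e-05, and 0.199 under normexp). Primary hepatocytes were at least 8.07-fold above the hepatocyte condition and at least 9.30-fold above primary cholangiocytes (adjusted p = 2.95e-07 and 1.03e-06).

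Ccl5, which attracts T cells and monocytes, read -5.14, -4.30, -5.64 and -4.71 in undifferentiated cells, -5.88, -5.42, -4.56 and -5.90 in the hepatocyte condition and -2.66, -3.57 and -3.92 in the cholangiocyte condition. The cholangiocyte condition lay above both other cultures. The conditions differed by -2.06 ± 0.49 (adjusted p = 0.0115), a call lost under normexp (adjusted p = 0.0553) and without cholangiocyte condition replicate 1 (-1.69, adjusted p = 0.0635).

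Markers of vessel and blood cells also differed between these groups. Of 8 tested endothelial markers, 7 were higher in primary hepatocytes than in primary cholangiocytes (28.0% of all genes), and 8 higher than in the hepatocyte condition (33.7%). The summed level of all 9 was 3.47 to 3.79 in primary hepatocytes and at most 1.66 elsewhere. Cdh5, Lyve1, Tek, Tie1 and Emcn were not above background in any cultured group. Of the 9, 3 were above background on every array of undifferentiated cells, 3 of the hepatocyte condition and 4 of the cholangiocyte condition. Against undifferentiated cells, 1 endothelial marker, Clec4g, passed as higher in the hepatocyte and in the cholangiocyte condition (7.62% and 0.785% of all genes). Of 19 tested leukocyte and Kupffer cell markers, 8 were higher and 3 lower in primary hepatocytes than in primary cholangiocytes (all genes: 28.0% and 21.6%), and 14 higher and 3 lower than in the hepatocyte condition (33.7% and 26.0%). The summed level of all 20 was 3.92 to 4.42 in primary hepatocytes, 5.26 to 5.41 in primary cholangiocytes and 3.99 to 4.76 in the cultures. Lyz2, Itgax and Laptm5 were not above background in any cultured group. Of the 20, 10 were above background on every array of undifferentiated cells, 10 of the hepatocyte condition and 11 of the cholangiocyte condition. Between the hepatocyte condition and undifferentiated cells, 2 of the 19 rose and 1 fell (all genes: 7.62% and 7.70%). Ptprc rose by 2.63 ± 0.53 (adjusted p = 0.00464), and Cd68 fell by 1.92 ± 0.33 (adjusted p = 0.00166). Tyrobp passed as higher (adjusted p = 5.07e-05), but it was not above background on any array of undifferentiated cells, so its fitted value measures no size. The part of these cell types in the chemokine levels was not tested.

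**Figure D4:**
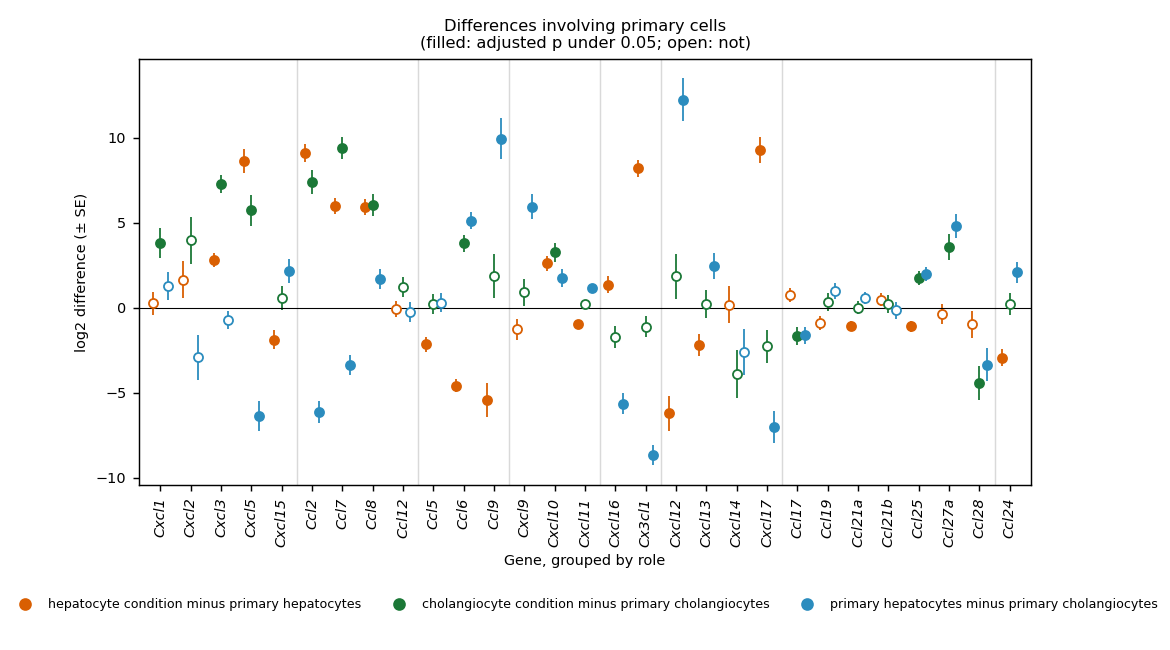
Log2 difference ± SE (vertical axis) of the 29 tested chemokine genes (horizontal axis, by role) for each condition against its primary cells and for primary hepatocytes against primary cholangiocytes; filled points passed at an adjusted p under 0.05. Ccl2, Ccl7, Ccl8, Cxcl3, Cxcl5 and Cxcl10 are filled above 0 in both comparisons of a condition with primary cells, with Cxcl3 against primary hepatocytes turning to -0.32 under normexp; points of genes that were dim in a whole group are fitted values, not bounds.

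Of 7 tested chemokines of lymphocyte homing, only Ccl17 passed in a comparison among cultures. Against undifferentiated cells, 7.70% of all genes fell in the hepatocyte and 0.597% in the cholangiocyte condition. Ccl17, a ligand of Ccr4, read -4.91, -3.41, -3.32 and -4.93 in undifferentiated cells, -6.26, -5.75, -6.46 and -5.74 in the hepatocyte condition and -6.96, -6.41 and -7.08 in the cholangiocyte condition. Undifferentiated cells lay above both conditions. Ccl17 fell by 1.91 ± 0.42 in the hepatocyte condition (adjusted p = 0.00674) and by 2.67 ± 0.45 in the cholangiocyte condition (adjusted p = 0.0100). The latter call was lost under normexp (-0.73, adjusted p = 0.150) and when only the compared groups were fitted (adjusted p = 0.111). Ccl19 and Ccl21a, ligands of Ccr7, read -5.14 to -2.32 and -6.61 to -4.51 over the 17 arrays, and the probes of Ccl21a and Ccl21b share a run of 43 bases. The Ccl19 probe used passed only between primary hepatocytes and undifferentiated cells, at 1.17 ± 0.40 (adjusted p = 0.0187), a call lost under median scaling and without undifferentiated replicate 4 or primary hepatocyte replicate 1 (adjusted p = 0.0524 to 0.0674). A second Ccl19 probe gave 2.10 ± 0.31 there, and also passed between primary hepatocytes and primary cholangiocytes at 1.96 ± 0.38 and between the hepatocyte condition and primary hepatocytes at -1.90 ± 0.31 (limma, adjusted p over all probes = 6.61e-04 and 1.22e-04). In those comparisons the probe used gave 0.98 ± 0.49 and -0.90 ± 0.40, and the other probe, above background on 6 arrays, passed in no comparison. Ccl25, a ligand of Ccr9, read -1.93 and -0.69 in primary cholangiocytes and 0.57 to 0.86 in primary hepatocytes, which were higher by 1.99 ± 0.40 (adjusted p = 9.64e-04).

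By the probes used, Ccl27a and Ccl28, both ligands of Ccr10, differed in primary cholangiocytes in opposite directions. Ccl28, an epithelial chemokine, read -0.69 and -4.56 there and was above background on at most 1 array of each other group. Primary cholangiocytes were above undifferentiated cells by 5.70 ± 0.95 (adjusted p = 8.90e-04, and 0.0628 when only the compared groups were fitted). The cholangiocyte condition differed from them by -4.41 ± 1.0 (adjusted p = 0.00722), a call lost without primary cholangiocyte replicate 3 (-2.48, adjusted p = 0.121). Ccl27a read -5.39 and -1.48 in primary cholangiocytes and -0.44 to 1.52 on all other arrays. Primary hepatocytes were above primary cholangiocytes by 4.81 ± 0.73 (adjusted p = 7.59e-05). A probe that shares a run of 48 bases with this one gave 4.36 ± 0.72, and another gave 0.20 ± 0.81. The latter probe also did not pass between primary cholangiocytes and undifferentiated cells (-1.74 ± 0.81, against -3.81 ± 0.73) or the cholangiocyte condition (1.42 ± 0.85, against 3.55 ± 0.77). Between the hepatocyte condition and primary hepatocytes it gave 1.77 ± 0.66 (limma, adjusted p over all probes = 0.0322), where the probe used gave -0.38 ± 0.59. Ccl24, an eosinophil attractant, was above background on 3 of 4 arrays of primary hepatocytes and on none of the hepatocyte condition.

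The lineage difference was then compared between culture and primary cells, as the hepatocyte minus the cholangiocyte condition, less primary hepatocytes minus primary cholangiocytes. This difference of differences passed for 5 positive chemokine genes (15.5% of all genes) and 12 negative ones (22.2%). Its median was -1.29 over the 29 and -0.44 over all genes. Under normexp the numbers positive and negative were 3 and 18 (all genes: 3401 and 13586). Cxcl17 and Cx3cl1 stood at 11.58 ± 1.25 and 9.32 ± 0.79 (adjusted p = 6.95e-06 and 7.40e-07). Ccl6, Cxcl12 and Ccl9 stood at -8.37 ± 0.66, -8.05 ± 1.69 and -7.29 ± 1.64 (adjusted p = 3.36e-07, 0.00189 and 0.00302). Of the 17 genes, 7 (Ccl6, Ccl7, Ccl24, Cx3cl1, Cxcl3, Cxcl15 and Cxcl17) were above background on no array of at least 1 of the 4 groups, so their values rest on readings of background and measure no size. For Ccl7 the lineage difference was -6.78 in culture. In primary cells it was only a bound, at least 2.73-fold lower in primary hepatocytes, and the fitted value turned to 0.34 under normexp. The calls of Ccl9, Ccl25 and Cxcl12, above background in all 4 groups, were kept in every alternative run. For Cxcl10 the difference of -0.65 ± 0.70 did not pass (adjusted p = 0.481).

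Genes that control or receive chemokines were read from lists. Of 14 tested NF-kappaB factors and inhibitors, 6 were lower in the hepatocyte than in the cholangiocyte condition and 1 was higher (all genes: 8.42% and 6.97%), with a median of -0.71 against -0.13 over all genes. Tnfaip3 and Nfkbia, feedback inhibitors that NF-kappaB induces, differed by -2.65 ± 0.32 and -1.51 ± 0.30 (adjusted p = 1.47e-04 and 0.00397). The factors Rel and Relb differed by -2.73 ± 0.65 and -1.47 ± 0.30 (adjusted p = 0.0116 and 0.00505). Bcl3, a cofactor, was higher by 1.03 ± 0.18 (adjusted p = 0.00203). Against undifferentiated cells, 1 of the list rose and 3 fell in the hepatocyte condition (all genes: 7.62% and 7.70%). In the cholangiocyte condition 2 rose (0.785% of all genes), Tnfaip3 by 1.58 ± 0.32 and Nfkbia by 1.36 ± 0.30 (adjusted p = 0.0301 and 0.0430).

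Of 16 cytokine and adhesion genes known as NF-kappaB targets, 5 were lower in the hepatocyte than in the cholangiocyte condition and 0 higher (all genes: 8.42% and 6.97%), with a median of -1.55. They included Csf2, a growth factor of myeloid cells, at -6.83 ± 0.71, and Ptgs2, a prostaglandin enzyme, at -6.01 ± 0.59 (adjusted p = 4.08e-05 and 2.63e-05). Against undifferentiated cells, 4 of the 16 fell in the hepatocyte condition (7.70% of all genes) and 2 rose (7.62%), Il6 by 4.06 ± 1.07 and Icam1 by 1.86 ± 0.48 (adjusted p = 0.0192 and 0.0181). In the cholangiocyte condition 1 rose (0.785% of all genes), Csf2, by 3.24 ± 0.71 (adjusted p = 0.0402).

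Of 13 tested regulators of the interferon response, 7 rose and 2 fell in the hepatocyte condition against undifferentiated cells (all genes: 7.62% and 7.70%), with a median of 0.79. Irf7, an interferon-induced factor, rose by 3.92 ± 0.43 (adjusted p = 5.92e-05). The receptor chains Ifngr1 and Ifngr2 fell by 0.69 ± 0.19 and 0.69 ± 0.20 (adjusted p = 0.0243 and 0.0334). Between the conditions 8 were higher and 2 lower (all genes: 6.97% and 8.42%), with a median of 1.04. In the cholangiocyte condition, 0 of the 13 rose against undifferentiated cells in the limma fit (0.785% of all genes), a share at which 0 of 13 says little. Stat2 fell by 1.89 ± 0.34 (adjusted p = 0.0131), where 0.597% of all genes fell. Of 18 genes of interleukin 1, TNF and toll-like receptor signalling, 4 rose in the hepatocyte condition (7.62% of all genes), among them the receptors Il1r1 and Tnfrsf1a (2.83 ± 0.46 and 2.47 ± 0.16, adjusted p = 0.00110 and 4.32e-07). None passed in the cholangiocyte condition (all genes: 0.785% and 0.597%), which at such shares says little.

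**Figure D5:**
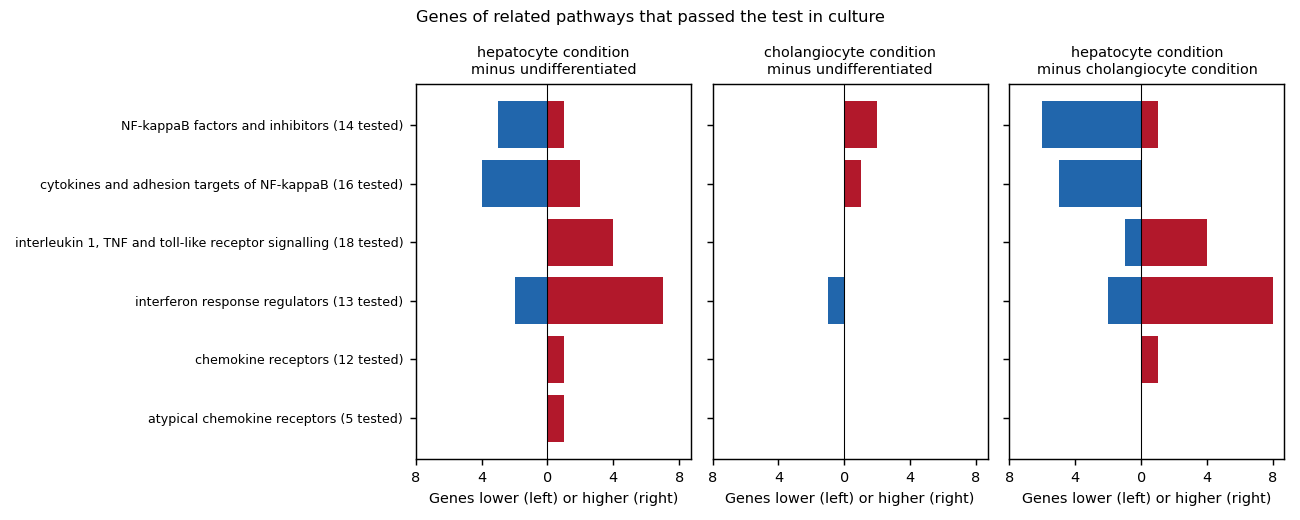
Number of genes that passed, lower to the left and higher to the right (horizontal axis), in 6 lists related to chemokines (vertical axis, with the number tested) for the 3 comparisons among cultured groups. Between the conditions, 6 NF-kappaB factors and inhibitors were lower and 8 interferon response regulators higher.

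Of 18 chemokine receptor genes, 12 were tested. Among the cultures 1 passed, Ccr8, where 7.62% of all genes rose in the hepatocyte condition. It rose by 3.95 ± 0.83 in the hepatocyte condition (adjusted p = 0.00547), where its ligand Ccl8 rose too, and differed between the conditions by 3.48 ± 0.89 (adjusted p = 0.0173). In primary hepatocytes 7 of the 12 receptors were higher than in undifferentiated cells and 0 lower (all genes: 37.6% and 26.6%). Of 5 atypical receptors, which take up chemokines without the usual signal for migration, 1 rose in the hepatocyte condition (7.62% of all genes), the Cxcl12 receptor Ackr3, by 5.17 ± 0.90 (adjusted p = 0.00167). Of 10 chemokine-like genes outside the naming rule, 5 were lower and 1 higher in the hepatocyte than in the cholangiocyte condition (all genes: 8.42% and 6.97%), among them Ppbp, a ligand of Cxcr2, at -4.61 ± 1.15 (adjusted p = 0.0147).

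The spread between replicate arrays differed among members. In the hepatocyte condition the SD was 2.75 for Ccl9 and 2.38 for Cxcl12 (n = 4), against 0.36 for Ccl17 and 0.48 for Cxcl5. Replicates 1 and 3 of that condition held the higher pair of values of Ccl8, Ccl9, Cxcl3, Cxcl9 and Cxcl10, genes named after seeing the values. Other replicates did so for Ccl2 (1 and 2), Ccl7 (2 and 3), Cxcl5 (2 and 4) and Cxcl12 (3 and 4). Whether replicates share an effect on these genes was not tested. The SD of the 2 arrays of primary cholangiocytes was 2.76 for Ccl27a and 2.74 for Ccl28. In each of the 8 comparisons, all members that passed had the same sign on every slide that held both groups, 1 to 3 slides. Where the arrays of the groups do not overlap, this sign is fixed in advance. That held for 17 of 19 members that passed between the hepatocyte condition and primary hepatocytes, 18 of 22 between primary hepatocytes and undifferentiated cells, and all in the other comparisons. The signs within slides are therefore no separate test. In the authors' deposited table of signed fold changes, every member that passed and is listed had the same sign as here, except Cxcl11 between the primary cell types, where 16 of 17 did.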

How the data were processed

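RNA of 17 samples in 5 groups was amplified as cDNA, labelled with Cy3 and hybridised to one-colour Agilent arrays, per the labels' protocols. The deposited intensities are the authors' scanner output, background-subtracted within each array by Agilent Feature Extraction (10.5.1.1 per the file headers, 9.53 per the submitters' processing notes) and not scaled between arrays. The authors' deposited table of signed fold changes, a score with no value between -1 and 1, was used for signs only, and the sources used here give neither its normalization nor its test. Probe positions are on build mm9, which the headers of 13 arrays name.

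Control spots and 135 probes with an outlier flag on at least 1 array were left out, spots of a probe were averaged, and log2 of the processed signal was set against the 75th percentile of each array. The 32302 probes well above background on at least 2 arrays were kept. For a gene with several probes, the brightest was used, and the others are given for comparisons between groups where their call differed. Genes were named by accession for 26330 probes, by current symbol for 3837, by an older symbol for 734 and by the name in the files for 8393. All 17 arrays were fitted in 1 model by group in R 4.3.3 by lmFit and eBayes of limma 3.58.1, two-sided, with Benjamini-Hochberg adjustment over 25975 genes, and the fit was tested on simulated data. Figures were drawn with matplotlib 3.10.9.

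Full statistics went first to members that passed in at least 1 comparison, by size, and every member is accounted for. From the related lists, counts are given with up to 4 genes per direction. The members and lists were chosen with earlier results of these data known. Alternatives were median scaling, quantile normalization, normexp (offset 50), other filters, the mean of the probes of a gene, slide or replicate number as a block, a fit to the compared groups alone and leaving out each array.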

Additional observations from a re-analysis of the deposited data

Results flagged for a closer look

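In groups of 4 arrays, 1 array stood far from the other 3 in 3 of 57 gene groups examined, and chance flags about 1 in 20 groups. Ccl21b read 3.07 on replicate 3 of primary hepatocytes, below the others. Ccl9 read 3.52 on replicate 1 of primary hepatocytes, below the others. Cxcl3 read -0.45 on replicate 3 of undifferentiated cells, above the others.

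The lineage difference, hepatocyte minus cholangiocyte, differed between cultured and primary cells in 17 chemokine genes by the test of the difference itself (limma, adjusted p under 0.05). Of these, 10 genes were above background on at least 1 array of each of the 4 groups compared. Among them, the log2 lineage difference, not the level, was higher in culture for Ccl28 (3.43), Cxcl16 (3.09) and Ccl17 (2.39). It was lower in culture for Cxcl12 (-8.05), Ccl9 (-7.29), Ccl27a (-3.93), Cxcl1 (-3.57), Ccl25 (-2.84), Ccl5 (-2.35) and Cxcl11 (-1.15). Ccl28 was above background on only 1 array each of both conditions and of primary hepatocytes, so its value rests largely on background readings. The other 7 were above background on no array of at least 1 group, Cxcl15 on none of 3 groups, so their values rest on background readings and measure no size. They were Cxcl17 (11.58), Cx3cl1 (9.32), Ccl6 (-8.37), Cxcl3 (-4.49), Ccl7 (-3.42), Ccl24 (-3.16) and Cxcl15 (-2.46).

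Of the 17 calls, 8 were kept in every alternative run and 9 were lost in at least 1. With the slide as a block, Ccl28 (adjusted p = 0.111) and Ccl5 (0.0508) were lost in the limma fit. Cxcl15 was lost with a replicate block (adjusted p = 0.108, limma) and Ccl27a with the mean of its probes (0.0781). Leaving out each array in turn, a choice made after seeing the data, left 12 to 18 genes, and Ccl28 and Cxcl15 were lost in most such fits. The fewest passed without primary cholangiocyte replicate 3, when Ccl5, Ccl17, Ccl24, Ccl28, Cxcl1 and Cxcl15 were lost and Ccl28 stood at 1.49. Cxcl16 was lost without primary cholangiocyte replicate 4, and Cxcl11 under median scaling and quantile normalization.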

How the results depend on the processing

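Of 126 called differences of single chemokine genes, 77 kept their direction and their call in every alternative run and 49 lost the call in at least 1, of which 8 also changed sign in at least 1. Fitting only the compared groups left 1 of 3 calls for the cholangiocyte condition against undifferentiated cells, 7 of 12 against primary cholangiocytes, and 7 of 11 for primary cholangiocytes against undifferentiated cells, where fewer arrays estimate the spread. Under normexp, the log2 difference turned to 0.024 for Ccl17 in the cholangiocyte condition against primary cholangiocytes, -0.32 for Cxcl3 in the hepatocyte condition against primary hepatocytes, and 0.44 for Ccl8 in primary hepatocytes against undifferentiated cells. Between primary hepatocytes and primary cholangiocytes it turned to 0.62 for Ccl17 (adjusted p = 0.0384) and 0.34 for Ccl7. The difference of differences of Ccl17 turned to -0.70. Under quantile normalization, Cxcl11 turned to -0.075 between the primary types and to 0.15 in the difference of differences. The cause of these reversals was not tested.

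The replicate numbers pair nothing that the labels state, and the deviations of 28 same-numbered pairs had a mean correlation of -0.00226, with 5 over 0.1. For 22 pairs on the same slide the mean was 0.0668, with 10 over 0.1, and slide as a block ended 7 of the calls of single genes and turned none. With the number as a replicate block, 10 chemokine genes passed between the hepatocyte condition and undifferentiated cells. There were 3 between the cholangiocyte condition and undifferentiated cells, and 11 between the conditions. The shares of all genes that passed with the block, or with 1 array left out, are not given here. The difference of Cxcl10 between primary cholangiocytes and undifferentiated cells, not called (-0.27), turned to 0.011 with the block, and ran from -0.68 to 0.15 when 1 array was left out. Leaving out 1 array gave 10 to 11, 3 to 4 and 10 to 13 genes in the comparisons among cultures. It gave 17 to 20 between the hepatocyte condition and primary hepatocytes, 9 to 13 between the cholangiocyte condition and primary cholangiocytes, 15 to 21 between the primary types, 19 to 22 between primary hepatocytes and undifferentiated cells, 9 to 12 between primary cholangiocytes and undifferentiated cells, and 12 to 18 for the difference of differences. Of the arrays, primary cholangiocyte replicate 3 ended the most calls, 17 of 62 differences examined; its group then held 1 array, assumed to vary like the other groups. Leaving out Cxcl11, Ccl21a and Ccl21b, chosen after seeing the data, gave 10, 3 and 12 in the comparisons among cultures. None of these genes had passed there, so the counts could not change and nothing was tested. Depth is signal over background here: 8 members were too dim to test, and those dim throughout a group have only bounds there.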
